A study of Rattus norvegicus with 6 samples.

Results

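Tachykinins are short peptides cut from precursors that neurons make, and 4 genes of this system were named for the rat nucleus accumbens: the precursor genes Tac1 and Tac3 and the receptor genes Tacr1 and Tacr3. They were chosen by symbol, and 3 of the 4 had a row among the 25629 genes of the deposited counts: Tac3 (ENSRNOG00000004229), Tacr1 (ENSRNOG00000005853) and Tacr3 (ENSRNOG00000009372). Tac1 was not analysed here, so the ligand side rests on Tac3 alone.

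As background, Tac1 encodes substance P and neurokinin A, and Tac3 encodes neurokinin B. Tacr1 encodes the NK1 receptor, which prefers substance P, and Tacr3 encodes the NK3 receptor, which prefers neurokinin B. Both receptors couple to Gq proteins and phospholipase C, and in the striatum substance P from spiny projection neurons is known to act on interneurons that carry the NK1 receptor.

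The data were single-nucleus RNA counts from nucleus accumbens punches of Sprague-Dawley rats aged 90 to 120 days, 6 male and 6 female, pooled into 6 libraries that each mixed both sexes. All rats had self-administered heroin, and the controls therefore carried the same heroin history as the treated rats. After the last session they received saline (3 libraries, replicates 1 to 3) or naloxone, an opioid receptor antagonist (3 libraries, replicates 4 to 6), and brains were taken 1 hour later. There was no group without heroin, and the doses were not given in the sources used here. Which rats went into which library is not stated, so a p-value measures the spread between pooled libraries.

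The files held 64260 barcodes, the labels state 44592 nuclei, and 58960 nuclei were kept here after filters and the removal of 2649 called doublets (4.3%). Median depth ranged from 4174.5 to 6375 unique molecular identifiers (UMIs, single counted RNA molecules) per nucleus across libraries. The median mitochondrial share of a nucleus was highest in naloxone replicate 5 (0.568%) and lay between 0.154% and 0.349% in the other libraries. Any 2 libraries shared 18 to 41 barcodes, and nuclei with a shared barcode fell into the same class in a median of 17.4% of cases, against 20.2% from the class sizes alone. Nuclei were placed in classes by marker genes, never by the 3 genes themselves. A class cut from a marker score is a range and not a type, and 22243 nuclei (37.7%) passed no gate. Among the 16 classes with at least 20 nuclei in every library, the nuclei within 10% of a cut made up 1.09% (oligodendrocyte-like) to 24.9% (Casz1/Otof-like). In raw marker UMIs several classes held more of the Chst9/Grm8 list than of their own: the medians were 34 against 7 in Casz1/Otof-like, 17 against 2 in glutamatergic-like, 11 against 2 in Drd1-like and 7 against 5 in Bnc2/Nxph2/Prlr-gated nuclei. Pthlh/Pvalb-like nuclei had 3 UMIs of their own list and 3.5 of the oligodendrocyte list. Somatostatin-like nuclei had 7 of their own and 2 of the next list, and cholinergic-like nuclei had 12 and 9. Of the 6 cholinergic markers 4 had a row in the files.

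Tacr1, the NK1 receptor gene, was highest in somatostatin-like and cholinergic-like nuclei. Levels are given as CPM, the usual depth-scaled count: the gene's UMIs divided by all UMIs of the class in that library. In somatostatin-like nuclei Tacr1 stood at 690, 789 and 786 CPM in saline replicates 1 to 3 and at 650, 948 and 984 CPM in naloxone replicates 4 to 6. Both groups overlapped there, and the mean was 808 ± 135 CPM (SD, n = 6 libraries). Cholinergic-like nuclei held 567, 493 and 558 CPM in the saline libraries and 417, 728 and 610 CPM in the naloxone libraries. Again the groups overlapped, at a mean of 562 ± 106 CPM (SD, n = 6).

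Somatostatin-like nuclei were above cholinergic-like nuclei in 6 of 6 libraries, by 0.53 ± 0.17 on the log2(CPM + 1) scale (SD). An exact sign-flip test (two-sided, libraries as units) gave p = 0.031. No smaller p is possible with 6 libraries, and adjusting for 8 neighbouring pairs made it 0.125, so the order of these classes did not pass the threshold. The next class, the Pthlh/Pvalb-like interneurons, reached 36.0 ± 12.6 CPM. Cholinergic-like nuclei were higher than these by 3.99 ± 0.61 in 6 of 6 libraries, with the same exact p and the same adjusted p of 0.125. Below them came neurons gated on Bnc2, Nxph2 and Prlr at 22.1 ± 9.95 CPM and glutamatergic-like neurons at 14.3 ± 5.79 CPM. Neighbours among these classes did not differ beyond the adjusted threshold either.

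Among spiny projection neurons, the main output cells of this region, 3 classes had almost no Tacr1. The level was 0.479 ± 0.382 CPM in Drd1-like nuclei, 0.723 ± 0.301 CPM in Drd2-like nuclei and 0.896 ± 0.433 CPM in Chst9/Grm8-like nuclei. Oligodendrocyte-like nuclei, which should lack the gene and so show what free RNA in the droplets gives, stood at 1.73 ± 0.933 CPM. In CPM these 3 spiny classes were thus below this background on average, and no expression is read from them. Oligodendrocyte-like nuclei were shallower (median 1626 UMIs against 9538 in Drd1-like nuclei), and counts per nucleus do not give this order. There were 24 Tacr1 UMIs in 5295 Drd1-like, 25 in 3923 Drd2-like and 14 in 2438 Chst9/Grm8-like nuclei. Oligodendrocyte-like nuclei held 39 in 11668. Casz1/Otof-like spiny neurons varied more, from 0 to 20.8 CPM over the libraries, with a mean of 6.19 ± 7.75 CPM. They were above the background in 4 of 6 libraries (exact sign-flip p = 0.3125, adjusted p = 0.391). No Tacr1 UMI was found in 321 endothelial-like nuclei, which allows a share of up to 0.935% of nuclei with a UMI, for counting error only.

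**Figure D1:**
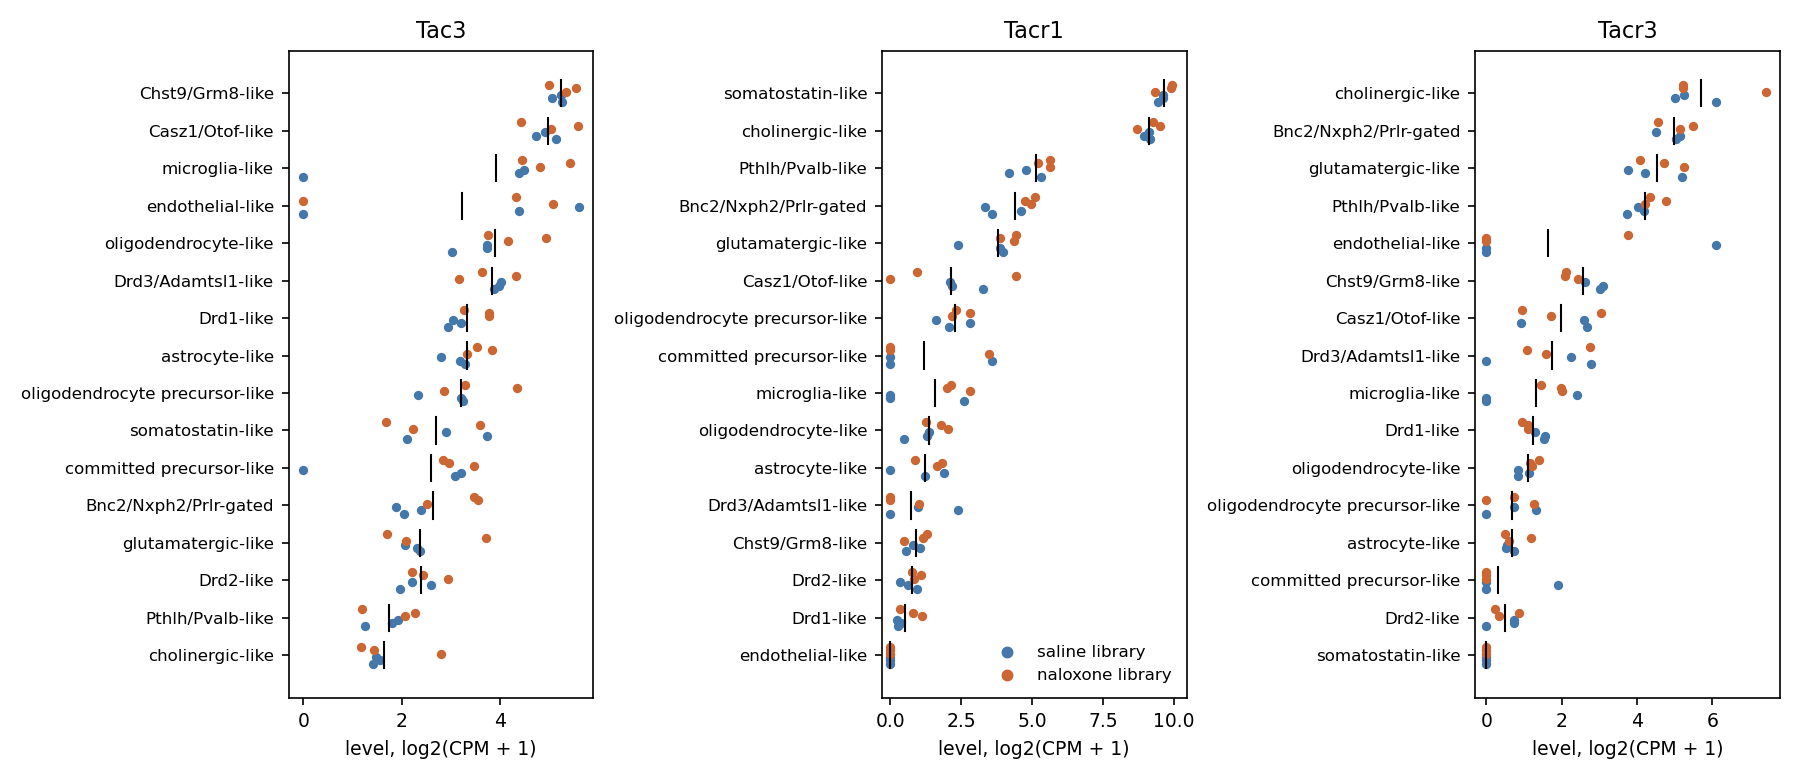
Level of Tac3, Tacr1 and Tacr3 in each marker-gated class, as log2(CPM + 1) on the horizontal axis. Each point is 1 library (blue for saline, orange for naloxone), the black tick is the mean of the 6 log2 values, and classes are sorted by mean CPM. Tacr1 stands far above the rest in somatostatin-like and cholinergic-like nuclei, and for Tac3 glial classes lie among the higher ones.

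Most receptor-bearing nuclei of both classes carried several Tacr1 molecules. A UMI was found in 271 of 318 somatostatin-like nuclei and in 237 of 286 cholinergic-like nuclei, with 2 or more UMIs in 243 and 213 of them and up to 64 and 40 UMIs in a single nucleus. Cholinergic-like nuclei held more UMIs each (median 12204 against 6312), so each nucleus was also thinned to 1000 UMIs. The share with a Tacr1 UMI was then 51.5 ± 3.52% in somatostatin-like, 38.8 ± 8.82% in cholinergic-like and 0.192 ± 0.158% in oligodendrocyte-like nuclei (SD, n = 6). Without thinning the shares were 85.9%, 82.8% and 0.297%. Pthlh/Pvalb-like nuclei had 2.96 ± 3.61% after thinning, with 13 positive nuclei in all.

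Much of the Tacr1 lay outside the gates. Ungated nuclei held 55.3% of its 10195 UMIs, cholinergic-like nuclei 20.7% and somatostatin-like nuclei 18.3%, the latter classes being 0.485% and 0.539% of nuclei. Unsupervised clusters, made without the members among the genes used, showed where the rest sat. In 9 of the 46 clusters with at least 20 nuclei in every library, Tacr1 was above every gated class other than somatostatin-like and cholinergic-like, and these clusters held 84.0% of Tacr1 UMIs in 7.56% of nuclei. They are named here by their leading genes, those of highest fold over all other nuclei, and were chosen for their level, which is therefore a description.

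Slc5a7 encodes the choline transporter, and Nos1 makes nitric oxide. The clusters led by Npsr1, Nos1, Npy and Sst (684 ± 90.7 CPM) and by Slc5a7, Slc17a8 and Rxfp2 (683 ± 87.8 CPM) were mostly somatostatin-like and cholinergic-like nuclei. Among clusters that mostly passed no gate, the one led by Dcdc1-ps1, Reln and Hs6st3 had 193 ± 77.7 CPM and the one led by Mboat1, Gpc5 and Sema3c had 189 ± 27.0 CPM. The Mboat1-led cluster alone held 16.0% of Tacr1 UMIs. Clusters led by Trhde, Ccbe1 and Dpf3 (134 ± 52.3 CPM), by Klhl1, Elfn1 and Gbx1 (93.4 ± 36.4 CPM) and by Cdh23, Lhx8 and Htr7 (84.9 ± 23.3 CPM) followed. The Rftn1-led and Tafa4-led clusters, at 49.9 ± 28.5 and 49.8 ± 9.91 CPM, closed the series. No class name was given to any of these 7 clusters. Nxph2 and Prlr, markers of the Bnc2/Nxph2/Prlr gate, were also leading genes of the Rftn1-led cluster, in which 81.9% of nuclei passed no gate.

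Tacr3, the NK3 receptor gene, had a different set of highest classes. In cholinergic-like nuclei it stood at 67.9, 31.2 and 37.3 CPM in saline replicates 1 to 3 and at 170.1, 36.2 and 36.0 CPM in naloxone replicates 4 to 6. Naloxone replicate 4 was far above the other 5 libraries, and the mean of 63.1 ± 54.1 CPM rests on it. Neurons gated on Bnc2, Nxph2 and Prlr followed at 31.4 ± 8.31 CPM, glutamatergic-like neurons at 24.1 ± 10.4 CPM and Pthlh/Pvalb-like interneurons at 18.0 ± 4.78 CPM. None of the 8 neighbouring pairs in this order passed the adjusted threshold, the lowest adjusted p being 0.333 in the exact sign-flip test.

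Each of the 4 leading Tacr3 classes was above oligodendrocyte-like nuclei (1.16 ± 0.328 CPM) in 6 of 6 libraries, by 3.12 to 4.61 on the log2(CPM + 1) scale (exact sign-flip p = 0.031, adjusted p = 0.067 over 15 classes). Chst9/Grm8-like spiny neurons were lower, at 5.11 ± 1.82 CPM, and still above the oligodendrocyte-like level in 6 of 6 libraries, by 1.46 ± 0.59, with the same exact p and adjusted p. Drd1-like nuclei (1.41 ± 0.418 CPM) and Drd2-like nuclei (0.432 ± 0.328 CPM) did not stand above it in CPM. Oligodendrocyte-like nuclei were shallower, with a median of 1626 UMIs against 9538 in Drd1-like and 8469 in Drd2-like nuclei. Per nucleus they held fewer Tacr3 UMIs, 25 in 11668, against 79 in 5295 Drd1-like and 17 in 3923 Drd2-like nuclei. Somatostatin-like nuclei, the class of highest Tacr1, held no Tacr3 UMI in 318 nuclei, which allows up to 0.943% of nuclei with a UMI.

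Cholinergic-like nuclei fell mostly into 2 clusters, and the receptor levels differed between these. Both clusters expressed Slc5a7 (633 ± 61.7 and 572 ± 167 CPM) and Lhx8 (299 ± 42.4 and 229 ± 62.1 CPM). Both genes are among the markers that gated these nuclei, so their presence follows from the gate. In the first, led by Slc17a8 and Rxfp2 after Slc5a7 and holding 200 of the 286 nuclei, Tacr3 ranged from 2.39 to 30.6 CPM over the 6 libraries. In the second, led by Dysf and Insrr after Slc5a7 and holding 52 nuclei, Tacr3 ranged from 202 to 351 CPM. Libraries of the clusters did not overlap: every library had more Tacr3 in its Dysf-led nuclei.

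Tacr1 went the other way. It ranged from 583 to 836 CPM in the Slc17a8-led nuclei and from 87.6 to 405 CPM in the Dysf-led nuclei, and 194 of 200 nuclei against 34 of 52 had a Tacr1 UMI. For Tacr3 these counts were 18 of 200 and 42 of 52. Depth was alike, with medians of 12771 and 12520 UMIs. Naloxone replicate 4 contributed 24 of the 52 Dysf-led nuclei, and the other libraries 4 to 10 each. Among the genes that set the clusters apart, Slc17a8, a vesicular glutamate transporter gene, was at 516 ± 87.3 against 75.8 ± 40.3 CPM. Lhx6, a transcription factor gene of interneuron lineages, was at 31.9 ± 5.77 against 0.524 ± 1.28 CPM. The contrast between these clusters was chosen after the levels were seen, and no test of it is used as support.

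**Figure D2:**
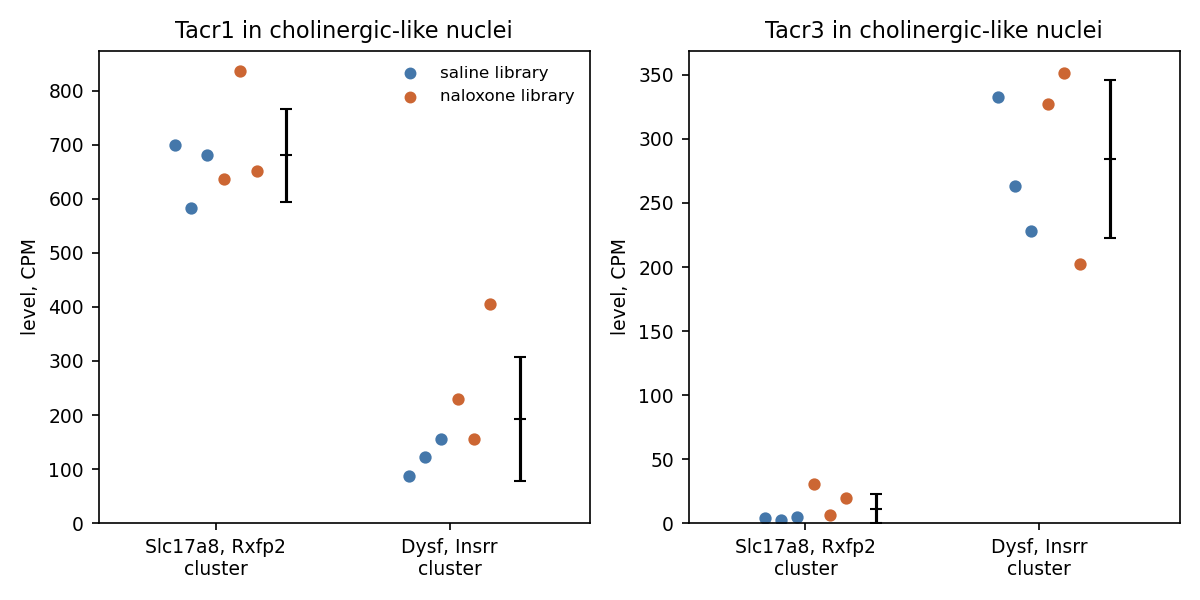
Level of Tacr1 and Tacr3 in CPM in the cholinergic-like nuclei of 2 clusters. Points are libraries (blue for saline, orange for naloxone), and the bar beside them gives the mean and SD over 6 libraries; the axes start at 0. Tacr3 is at 202 CPM or more in every library of the Dysf-led cluster and at 30.6 CPM or less in the Slc17a8-led cluster.

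By cluster, Tacr3 was above every gated class other than the cholinergic-like one in 3 clusters, which held 32.9% of its 2826 UMIs in 2.09% of nuclei. The Trhde-led cluster had 75.3, 98.4 and 89.8 CPM in the saline libraries and 119, 108 and 139 CPM in the naloxone libraries, a mean of 105 ± 22.5 CPM. Every naloxone library was above every saline library there. The log2 change of naloxone over saline, 0.52 (SE 0.21), was not called by edgeR's quasi-likelihood test (adjusted p = 0.795). The Tafa4-led cluster had 66.9 ± 16.0 CPM, with overlapping groups, and a cluster led by Igf1 and Slc17a6, mostly of glutamatergic-like nuclei, had 39.2 ± 19.1 CPM. Slc17a6 encodes a vesicular glutamate transporter. The Trhde-led and Tafa4-led clusters were thus high in both receptors.

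How often both receptors were found in a nucleus, beside what their separate shares give, varied between classes. In the Trhde-led cluster 43 of 320 nuclei had a UMI of both, where the product of the shares in each library gives 40.1. In the Tafa4-led cluster 50 of 594 nuclei had both, against 43.2. Cholinergic-like nuclei gave 45 of 286 against 50.4. Counts were below the product in Bnc2/Nxph2/Prlr-gated (8 against 13.4) and glutamatergic-like nuclei (2 against 5.53) and in the Cdh23-led cluster (6 against 13.99), and above it in Pthlh/Pvalb-like nuclei (10 against 5.68). Depth is shared by both genes in a nucleus, and these counts carry no test.

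**Figure D3:**
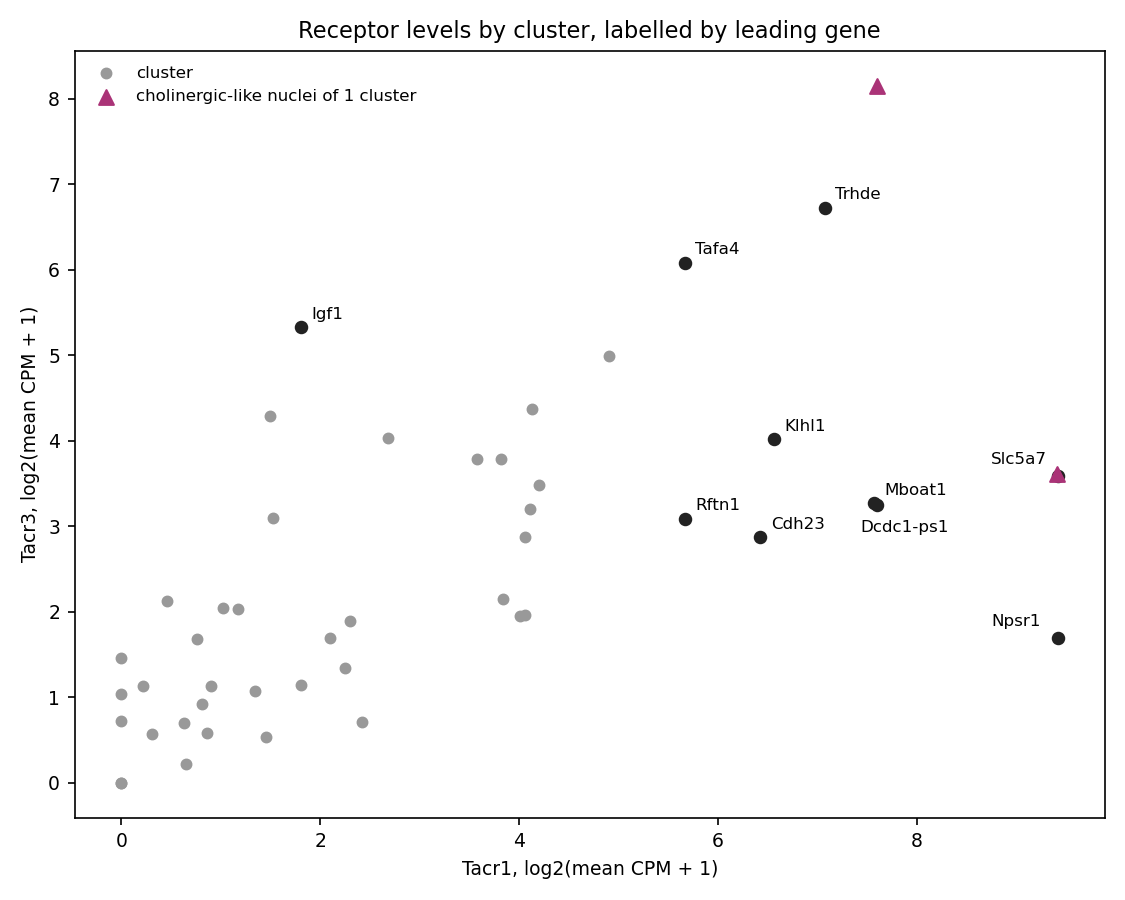
Mean Tacr1 level against mean Tacr3 level, both as log2(CPM + 1), for each cluster with at least 20 nuclei in every library (circles). Black circles are the clusters named in the text by their first leading gene, and triangles are the cholinergic-like nuclei of the 2 clusters. The Npsr1-led cluster lies at high Tacr1 and low Tacr3, and the Trhde-led and Tafa4-led clusters are high in both.

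Tac3, the neurokinin B precursor gene, was highest in Chst9/Grm8-like and Casz1/Otof-like spiny neurons. Chst9/Grm8-like nuclei held 37.1, 32.1 and 36.8 CPM in the saline libraries and 39.1, 45.3 and 31.0 CPM in the naloxone libraries, with a mean of 36.9 ± 5.15 CPM. Casz1/Otof-like nuclei held 34.1, 25.5 and 29.2 CPM and 31.7, 46.8 and 20.5 CPM, with a mean of 31.3 ± 8.97 CPM. These classes overlapped across libraries, and their difference of 0.26 ± 0.21 (log2, higher in 5 of 6) gave an exact sign-flip p of 0.0625 and an adjusted p of 0.25. Among unsupervised clusters, the Chst9-led one had 33.7 ± 5.61 CPM and the one led by Mdfic, Hmcn1 and Casz1 had 31.8 ± 8.08 CPM. In the latter 49.1% of nuclei passed no gate, and 0% of Casz1/Otof-like nuclei fell in a cluster named for that class. It held 9.66% of Tac3 UMIs in 2.48% of nuclei. Another cluster, led by Mdfic, Nr4a3 and Lgr6, held 1.14% in 0.673% of nuclei.

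Tac3 UMIs were also found in glial and vascular nuclei, where free RNA and expression were not told apart. Oligodendrocyte-like nuclei stood at 15.05 ± 7.63 CPM, microglia-like nuclei at 21.8 ± 13.4 CPM and endothelial-like nuclei at 19.8 ± 18.6 CPM, the last from 13 UMIs. Chst9/Grm8-like nuclei were above the oligodendrocyte-like level in 6 of 6 libraries, by 1.35 ± 0.52 (log2), and Casz1/Otof-like nuclei by 1.08 ± 0.54 (exact sign-flip p = 0.031 and adjusted p = 0.0521 for each, over 15 classes). Drd1-like nuclei, at 9.33 ± 2.65 CPM, were below it in 6 of 6 libraries, and so were Drd2-like nuclei at 4.39 ± 1.36 CPM. This comparison is in CPM, and oligodendrocyte-like nuclei were shallower (median 1626 UMIs against 9538 in Drd1-like and 8469 in Drd2-like nuclei). There were 508 Tac3 UMIs in 5295 Drd1-like and 154 in 3923 Drd2-like nuclei. Both are more per nucleus than the 315 in 11668 oligodendrocyte-like nuclei. Tac3 expression in the Drd1-like and Drd2-like classes as wholes is therefore neither read nor denied here. Within the Drd1-like class the Rgs6-Crym-Calb1 side had 15.2 ± 5.13 CPM and the Pde11a-Chst15 side 6.02 ± 1.52 CPM. In CPM neither is clear of the glial level. Per nucleus both held more than the oligodendrocyte-like class, with 243 UMIs in 1716 nuclei and 185 UMIs in 2775 nuclei.

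The highest Tac3 level of any cluster with enough nuclei, 52.4 ± 25.2 CPM, was in 1332 nuclei led by Chchd10, Mt3 and Mt-nd5. These nuclei were shallow, with a median of 1543 UMIs, and had a median mitochondrial share of 2.58%, above the highest library median of 0.568%. After thinning to 1000 UMIs, 3.49 ± 1.27% of Chst9/Grm8-like nuclei and 2.78 ± 2.33% of Casz1/Otof-like nuclei had a Tac3 UMI, against 1.61 ± 0.871% of oligodendrocyte-like and 0.921 ± 0.689% of Drd1-like nuclei. As counted, the shares were 18.5%, 19.1%, 2.57% and 8.32% at median depths of 5844, 7298, 1626 and 9538 UMIs. Few of the positive nuclei had more than 1 UMI: 97 of 436 in the Chst9/Grm8-like class.

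Nuclei with both ligand and receptor were few in the class of highest Tac3. Of the 436 Chst9/Grm8-like nuclei with a Tac3 UMI, 3 also had a Tacr3 UMI, where the product of the shares gives 9.41, and 1 had a Tacr1 UMI, where it gives 2.56. In the receptor classes few nuclei had Tac3 at all: 10 of 15 such somatostatin-like nuclei had a Tacr1 UMI (product 12.6), and 5 of 8 cholinergic-like nuclei (product 6.52). Tac3 and Tacr3 met in 9 Bnc2/Nxph2/Prlr-gated nuclei (product 5.48) and in 7 Drd1-like nuclei (product 4.51). These are counts of a few nuclei, without a test. The 2 remaining genes of the family were close to undetected: Tac4, another precursor gene, had 25 UMIs in all nuclei and was highest in microglia-like nuclei at 5.64 ± 5.63 CPM (10 UMIs). Tacr2, the NK2 receptor gene, had 7 UMIs in all and was highest in Casz1/Otof-like nuclei with 1 UMI.

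The question of the treatment comparison was which of these genes differed 1 hour after naloxone. Over all nuclei Tacr1 was higher after naloxone. Its level was 22.6, 21.1 and 22.9 CPM in saline replicates 1 to 3 and 33.7, 34.5 and 31.2 CPM in naloxone replicates 4 to 6. Groups did not overlap, and the log2 change was 0.57 (SE 0.067; edgeR's quasi-likelihood test, adjusted p = 0.0442). In that fit 14 of 17350 genes were called, 0.0807%. The call ended when saline replicate 1, 2 or 3 or naloxone replicate 4 or 6 was left out (adjusted p 0.0884 to 0.246) and with a minimum of 1000 genes per nucleus (0.0543), while the log2 change was 0.49 to 0.60 across all alternatives of this fit.

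In a sum over all nuclei, more cells of a kind and more RNA per cell cannot be told apart, so the sum was split. With each cluster's share of UMIs held at its mean over libraries, Tacr1 was 23.8, 24.5 and 25.3 CPM in the saline libraries and 28.5, 34.9 and 26.5 CPM in the naloxone libraries. With each cluster's level held instead, so that only the makeup varied, it was 26.0, 23.6 and 24.4 CPM against 29.8, 27.9 and 31.9 CPM. The log2 ratios of the group means were 0.29 and 0.28 under these settings, and the groups did not overlap in either (exact permutation p = 0.1, the smallest that 3 against 3 libraries allow). Naloxone replicate 5 was the highest library with shares held and the lowest of its group with levels held.

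The makeup differed as follows. The 9 clusters of highest Tacr1 made up 7.31%, 6.04% and 6.65% of nuclei in the saline libraries and 9.83%, 7.08% and 9.11% in the naloxone libraries, with overlap through naloxone replicate 5. For the Mboat1-led cluster alone the shares were 1.16%, 1.04% and 0.805% against 1.67%, 1.23% and 1.52%, without overlap. Somatostatin-like nuclei (0.571 ± 0.0133% against 0.51 ± 0.0735%) and cholinergic-like nuclei (0.507 ± 0.162% against 0.486 ± 0.0267%) were not more frequent after naloxone. Fewer cells of a kind in the tissue and fewer of its nuclei in the library cannot be told apart.

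**Figure D4:**
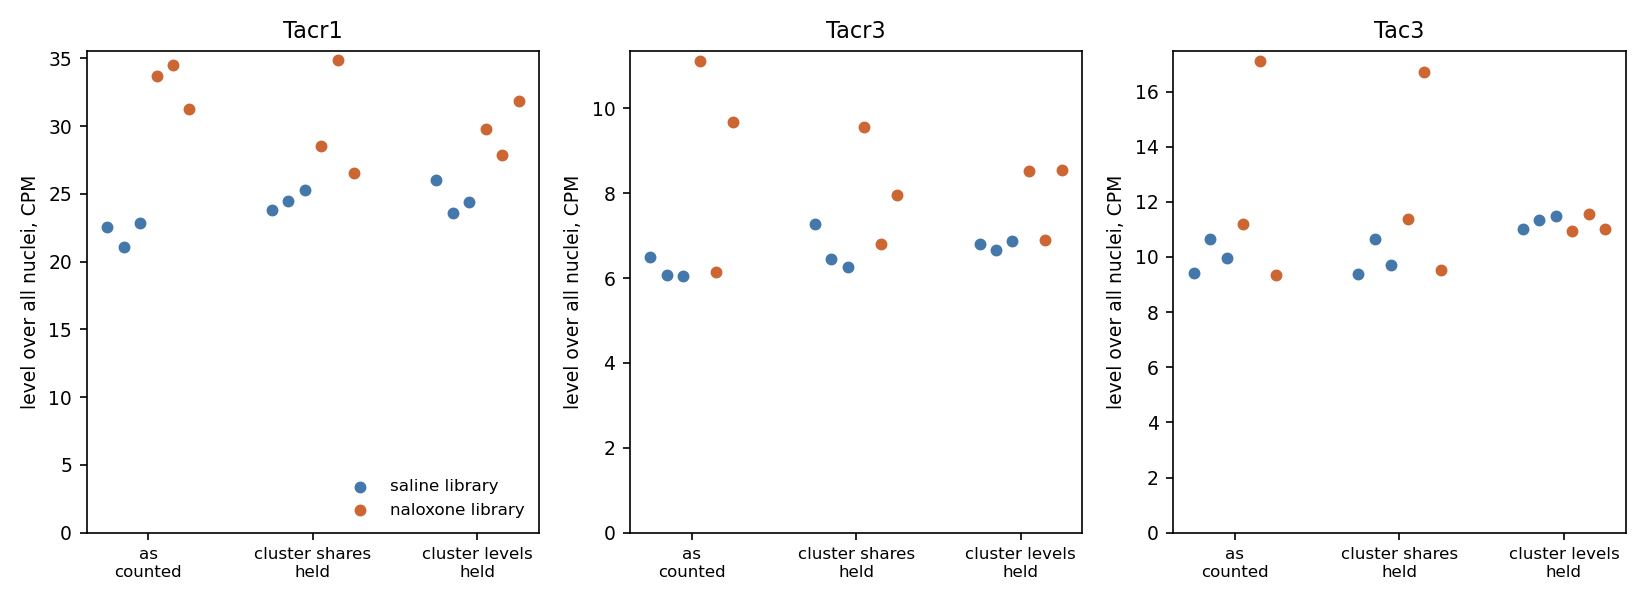
Level of Tacr1, Tacr3 and Tac3 over all nuclei in CPM for each library (blue for saline, orange for naloxone), as counted, with cluster shares held at their mean, and with cluster levels held at their mean; the axes start at 0. For Tacr1 the groups are apart in all 3 columns, by less in the columns with shares or levels held.

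Within classes no call was made for Tacr1. It could be tested in 5 of the 16 classes. By edgeR 0 of these 5 were called, by DESeq2 0, and 2 had an unadjusted edgeR p under 0.05. Such a p was found for 3.96% to 7.13% of all genes in these 5 classes. Of all genes, 0.12% were called in somatostatin-like nuclei and 0% in the other 4 classes. In neurons gated on Bnc2, Nxph2 and Prlr the level was 11.05, 23.4 and 9.01 CPM after saline and 29.8, 26.1 and 33.3 CPM after naloxone. These groups did not overlap, and the log2 change of 1.07 (SE 0.31) had an edgeR adjusted p of 0.576. Pthlh/Pvalb-like interneurons gave 0.75 (SE 0.29, edgeR adjusted p = 0.607). In the classes of highest level the log2 changes were smaller, 0.21 (SE 0.15, edgeR adjusted p = 0.873) in somatostatin-like and 0.12 (SE 0.18, edgeR adjusted p = 0.972) in cholinergic-like nuclei.

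Of 15 clusters in which Tacr1 could be tested, 0 were called by edgeR, 6 had an unadjusted p under 0.05 and 14 had a log2 change above 0. Of all genes, 4.54% to 7.48% had an unadjusted p under 0.05 there. The share called was 0.124% in 1 cluster, 0.086% in the Tafa4-led, 0.056% in the Npsr1-led, 0.0111% in the Mboat1-led and 0.0103% in the Cdh23-led cluster. It was 0.0799%, 0.046% and 0.0103% in 3 clusters not named here, and 0% in the others. Clusters of a library share its preparation and are not replicates. In the Rftn1-led cluster Tacr1 was 28.9, 30.02 and 23.1 CPM after saline and 85.4, 85.0 and 46.7 CPM after naloxone. No naloxone library overlapped with saline there, and the log2 change was 1.40 (SE 0.26, edgeR adjusted p = 0.127). With a library left out it was 1.21 to 1.65, with an edgeR adjusted p of 0.0147 to 0.599. The lowest p was without naloxone replicate 6, the lowest naloxone library. In the Rftn1-led cluster the share of nuclei averaged 0.816% after saline (0.876%, 0.600% and 0.972%) and 1.36% after naloxone (1.85%, 0.896% and 1.33%). These shares overlapped between the groups (exact permutation p = 0.2). The Trhde-led cluster gave 59.6, 102 and 113 CPM against 177, 201 and 152 CPM, a log2 change of 0.95 (SE 0.22, edgeR adjusted p = 0.242). The Mboat1-led cluster gave 159, 184 and 165 CPM against 205, 232 and 186 CPM, a log2 change of 0.30 (SE 0.11, edgeR adjusted p = 0.671).

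**Figure D5:**
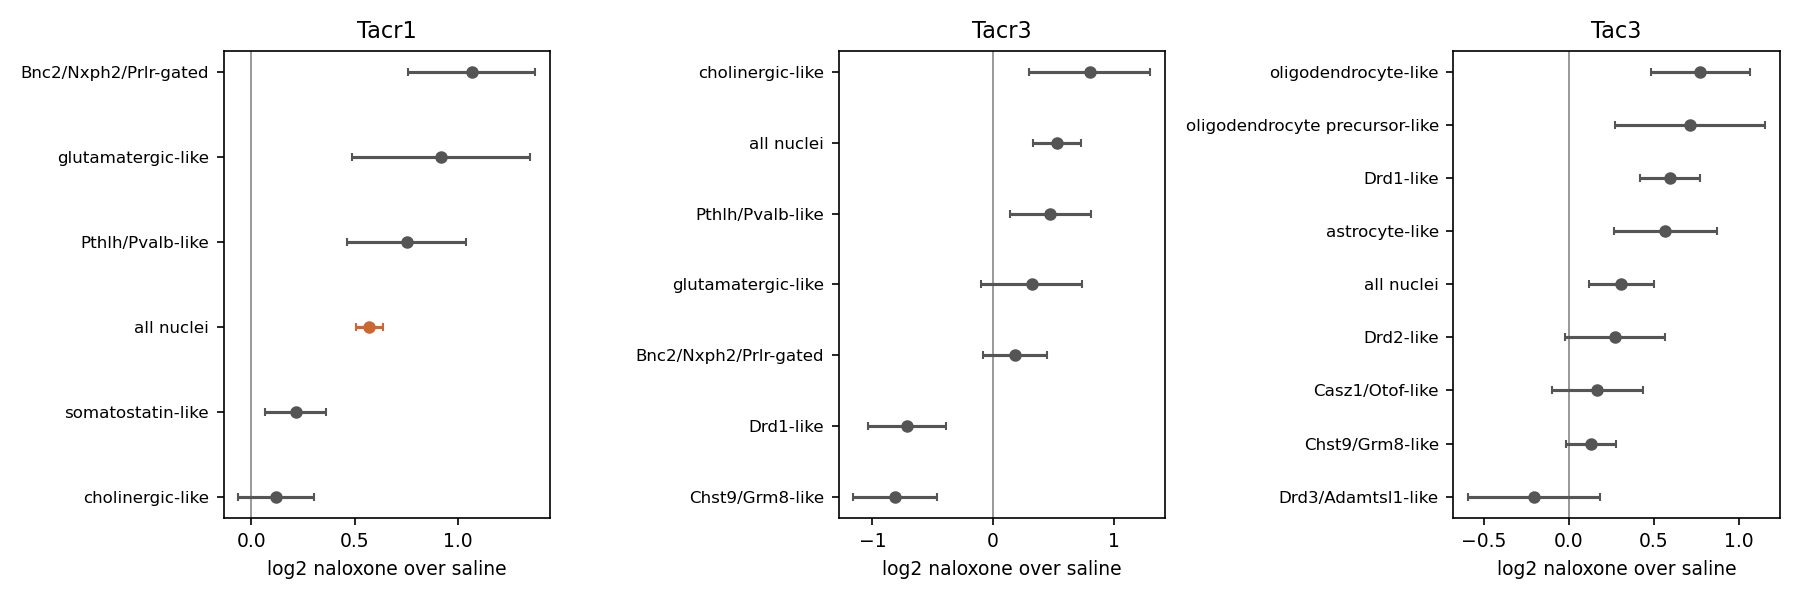
Log2 change of naloxone over saline for each class in which the gene could be tested, and for all nuclei, with its standard error as the bar (edgeR, 3 libraries a group). Orange marks the single value with an adjusted p under 0.05, Tacr1 over all nuclei, and the vertical line is no change.

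Tacr3 was tested in 6 classes, of which edgeR called 0, DESeq2 called 0 and 2 had an unadjusted edgeR p under 0.05. Such a p was found for 3.96% to 12.5% of all genes in these 6 classes and for 4.69% to 10.8% in the clusters tested. Of all genes, 0.102% were called in Chst9/Grm8-like and 0.162% in Drd1-like nuclei, and 0% in the other 4 classes. By cluster it was called in 0 of 12, with 1 at an unadjusted p under 0.05; of all genes, up to 0.164% were called there, with 0.141%, 0.0577% and 0.0156% in further clusters. In Chst9/Grm8-like nuclei it was 7.04, 7.501 and 5.10 CPM after saline and 4.39, 3.29 and 3.32 CPM after naloxone. Groups did not overlap on these 78 UMIs, and the log2 change was -0.81 (SE 0.35, edgeR adjusted p = 0.471). The direction did not hold in the Chst9-led cluster, where the change was 0.04 (SE 0.25, edgeR adjusted p = 0.982). In cholinergic-like nuclei the change of 0.80 (SE 0.50, edgeR adjusted p = 0.945) became -0.33 without naloxone replicate 4, the library with 24 of the 52 Dysf-led nuclei. Over all nuclei Tacr3 gave 0.53 (SE 0.20, edgeR adjusted p = 0.298), with naloxone replicate 5 at the saline level. With a library left out the change was 0.36 to 0.74 and the edgeR adjusted p 0.0161 to 0.601. The lowest p was without naloxone replicate 5, the library at the saline level. That fit called 252 genes in all, against 14 with all libraries.

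Tac3 was tested in 8 classes, with 0 called by edgeR, 0 called by DESeq2 and 2 at an unadjusted edgeR p under 0.05. Such a p was found for 6.20% to 12.5% of all genes in these 8 classes and for 4.54% to 12.4% in the clusters tested. Of all genes, 0.0122% were called in Casz1/Otof-like, 0.241% in Drd2-like, 0.405% in oligodendrocyte precursor-like, 0.785% in oligodendrocyte-like and 0.835% in astrocyte-like nuclei. By cluster Tac3 was called in 0 of 16, with 3 at an unadjusted p under 0.05. The share of all genes called ranged from 0% to 1.06% there, with 0.658%, 0.413%, 0.337%, 0.21%, 0.166%, 0.13% and 0.00997% in between. In the classes of highest level the log2 change was 0.13 (SE 0.15, edgeR adjusted p = 0.841) in Chst9/Grm8-like and 0.17 (SE 0.27, edgeR adjusted p = 0.904) in Casz1/Otof-like nuclei. Drd1-like nuclei held 6.63, 8.17 and 7.27 CPM after saline and 12.7, 12.6 and 8.65 CPM after naloxone. These groups did not overlap, and the change of 0.60 (SE 0.17) had an edgeR adjusted p of 0.205. Oligodendrocyte-like nuclei also had higher values after naloxone, with 7.15, 12.3 and 12.3 CPM against 16.8, 29.3 and 12.4 CPM and a change of 0.78 (SE 0.29, edgeR adjusted p = 0.342). Astrocyte-like nuclei gave 0.57 (SE 0.30, edgeR adjusted p = 0.517), and the part of the glial level in the Drd1-like value was not tested.

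The difference between classes was tested itself. The Tac3 change in Chst9/Grm8-like minus that in Drd1-like nuclei was -0.47 (SE 0.19, edgeR adjusted p = 0.616, 0.0557% of genes called), and in Drd2-like minus Drd1-like nuclei -0.32 (SE 0.27, edgeR adjusted p = 0.864, 0.614% of genes called). For Tacr3 these differences were -0.14 (SE 0.51, edgeR adjusted p = 0.992) and 0.59 (SE 0.90, edgeR adjusted p = 0.941). None passed the threshold.

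Female and male nuclei, told apart by Xist and Y-linked transcripts, were compared within libraries. Of 30 pairs of gene and class (all nuclei counted as a class), 0 passed after adjustment. Tacr3 in Chst9/Grm8-like nuclei averaged 7.37 CPM in female and 2.67 CPM in male nuclei, higher in 6 of 6 libraries (69 UMIs, exact sign-flip p = 0.031, adjusted p = 0.469). Tacr1 in Drd1-like nuclei averaged 0.78 against 0.0942 CPM, again in 6 of 6 libraries and with the same exact p and adjusted p, on 20 UMIs. Both of these Tacr1 levels are below that of oligodendrocyte-like nuclei, taken as background, of 1.73 CPM, and no expression is read from them. Over all nuclei the log2 difference of female minus male was 0.02 for Tacr1, 0.18 for Tacr3 and -0.08 for Tac3.

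Genes around the peptides and receptors were taken from fixed lists. Of 9 genes for peptide processing and storage, 1 was called in 1 class. This was Chga, the chromogranin A gene of dense-core vesicles, in Drd2-like nuclei, with 50.4, 49.6 and 47.4 CPM after saline and 63.5, 81.5 and 75.9 CPM after naloxone. Every naloxone library was above every saline library, and the log2 change was 0.61 (SE 0.098, edgeR adjusted p = 0.0153, where 0.241% of genes were called). The call ended without saline replicate 1, 2 or 3 or naloxone replicate 6 (adjusted p 0.0563 to 0.104). The median change of the 9 genes in Drd2-like nuclei was 0.19, against 0.00 over all genes. This was not the largest: the medians over the tested genes of the list ran from -0.47 in committed precursor-like to 0.50 in endothelial-like nuclei, with 0.45 in oligodendrocyte-like nuclei. None of the 5 tachykinin-degrading peptidase genes, the 14 genes of the Gq and phospholipase C arm or the 6 receptor desensitization genes was called in any class by edgeR. Of all genes, 0.0323% were called in microglia-like nuclei, a class in which no member could be tested.

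The genes whose class profile was most like that of each member, by Pearson's r over the 16 class means, were described without a test. For Tacr1 they were Adra1b (0.89), Ass1 (0.87), Piezo2 (0.85), Clasrp (0.85) and Or10al6 (0.84). Adra1b, an alpha-1 adrenergic receptor gene, was at 60.7 CPM in somatostatin-like nuclei and 17.4 CPM in cholinergic-like nuclei. For Tacr3 they were Klhl1 (0.83), Il1rapl2 (0.83), Lama3 (0.81) and Kcnk9 (0.81). For Tac3 they were Zdhhc17, Rpf1, Lyst and Aimp1 (0.80 each) and Hmgn2 (0.79), of which Zdhhc17, Rpf1 and Aimp1 were highest in glial or vascular classes. The points share libraries and differ in depth.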

How the data were processed

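UMI counts per gene and barcode were used as deposited. The authors made them with Cell Ranger 9.0.1 on build mRatBN7.2, per the submitters' processing notes, which also name Seurat 5.2.1 and R 4.4.0. Nuclei needed 500 genes or more and a mitochondrial share of 5% or less, and doublets were removed per library by a score from simulated pairs at 0.4% per 1000 nuclei. Marker scores averaged over 15 neighbours (40 principal components of 3000 variable genes, without the members) (Python 3.11.15, scikit-learn 1.9.0) placed nuclei in classes, and Leiden clusters (leidenalg 0.10.2, resolution 1) were the alternative. Counts were summed per library and class and tested with edgeR 4.0.16 (R 4.3.3, quasi-likelihood, TMM, filterByExpr, Benjamini-Hochberg over all genes of a fit, threshold 0.05); DESeq2 1.42.0 was an alternative. Checked on simulated counts in which 200 genes differed by a log2 of 1, edgeR recovered 66% in cholinergic-like, 66.5% in somatostatin-like and 88% in all nuclei. Class levels were compared by exact sign-flip tests over libraries. Alternatives covered scaling, filters, gates, doublets, sexes, adjustment and each library left out.

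The text names all members, the 5 genes most like each in class profile (at least 10 CPM in 1 class, no marker gene), pathway genes called in any class, and Tac4 and Tacr2. Of the genes most like Tacr3, 1 is not reported here. Clusters and the cholinergic pair were named after their levels were seen. Members and lists were chosen with earlier results of these data known. Intervals and limits for counts of 0 cover counting error only. The labels name no batch.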

Additional observations from a re-analysis of the deposited data

How the results depend on the processing

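No paired analysis was possible because the labels state no pairing of libraries. Saline libraries are numbered 1 to 3 and naloxone libraries 4 to 6, and the groups share no replicate number. The Tacr1 change over all nuclei was 0.53 to 0.60 (log2) when a library was left out, and 0.58 with at least 1000 genes per nucleus, where the call was lost. Genes called over all nuclei numbered 14; the count was 0 to 252 with a library left out (252 without naloxone replicate 5), 40 with no filter on low counts, 372 with DESeq2, 80 with sums by sex and 0 with at least 1000 genes. Members called in gated classes rose from 0 to 1 with no filter, this being Tac3 in oligodendrocyte-like nuclei (adjusted p = 0.0328). Without the filter more genes were called in other classes too, 249 against 21 in Drd1-like and 282 against 92 in astrocyte-like nuclei. The added call is therefore not read as a result for Tac3.

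Uncalled changes turned direction in several settings; ranges are over the fits that leave out a library. Tac3 in Casz1/Otof-like nuclei was -0.16 with the stricter gate and -0.27 (without naloxone replicate 5) to 0.49. Tac3 in Drd3/Adamtsl1-like nuclei was 0.077 with Leiden clusters and -0.53 to 0.031 (without naloxone replicate 4), and in the Chchd10-led cluster -0.53 (without naloxone replicate 5) to 0.52. Tacr1 was -0.038 (without naloxone replicate 5) to 0.32 in cholinergic-like nuclei, -0.048 (without the same library) to 0.20 in the Npsr1-led cluster and -0.61 (without naloxone replicate 4) to 0.38 in the Dcdc1-ps1-led cluster. With Leiden clusters Tacr3 was -0.44 in the Bnc2/Nxph2/Prlr neurons and 0.053 in the Chst9/Grm8 neurons. Tacr3 was -0.028 (without saline replicate 3) to 0.44 in the Bnc2/Nxph2/Prlr neurons, -0.33 (without naloxone replicate 4) to 1.22 in cholinergic-like nuclei, -0.053 (without saline replicate 3) to 0.79 in glutamatergic-like nuclei and -0.46 (without naloxone replicate 4) to 0.52 in the Igf1-led cluster. The Tacr3 difference of Drd2-like minus Drd1-like changes was -0.37 (without naloxone replicate 5) to 1.07. Tac3 over all nuclei was -0.014 with cluster levels held, an alternative chosen after seeing the data, as were the fits by cluster. The cause was not tested.

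Shares with a UMI rose with depth by construction: Tacr1 in somatostatin-like nuclei was 66.5% at 2000 UMIs and 85.9% not thinned, in cholinergic-like nuclei 54.4% and 82.8%, Tac3 in Chst9/Grm8-like nuclei 6.22% and 18.5%, in Casz1/Otof-like nuclei 19.1% not thinned, and Tacr3 in cholinergic-like nuclei 21.3% not thinned. With Leiden clusters the Tacr1 share in somatostatin-like nuclei was 43.9%, and its lead over cholinergic-like nuclei 0.21 (log2). With 3 libraries a group, recovery in simulated data was 6.5% in endothelial-like nuclei, so small classes say little. The minimum exact p was 0.1 between groups and 0.0625 with 5 libraries.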
